A study of Homo sapiens with 20 samples.

Results

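The genes described here are the sodium, chloride, bicarbonate and phosphate carriers of the solute carrier (SLC) superfamily, 39 of the 19775 genes with a named probe set on the arrays. They were taken by symbol alone, as every gene that the platform annotation numbers within family SLC4, SLC8, SLC9, SLC12, SLC20, SLC26 or SLC34, and together they carried 89 probe sets. By role they were 10 members of SLC4, the bicarbonate and anion exchanger family, 3 sodium/calcium exchangers of SLC8 and 5 sodium/proton exchangers of SLC9. The others were 8 cation/chloride cotransporters of SLC12, 5 sodium/phosphate cotransporters of SLC20 and SLC34, and 8 multifunctional anion exchangers of SLC26. Of the 39, 22 passed the floor on signal in the probiotic array set, 25 passed it in the E. coli array set, and 14 passed in neither. The floor was the 40th percentile of the gene means over the arrays of a fit, a log2 signal of 2.74 in the probiotic set and 2.78 in the E. coli set.

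Caco-2 is a human colon carcinoma line that forms a polarised, enterocyte-like monolayer, here differentiated on culture inserts over 5 days and exposed from the apical side. Gene expression was measured on 20 Affymetrix arrays in 9 groups, and each treatment was compared with the medium of its own array set. In the probiotic set, with 2 arrays a group, cells received medium alone for 8 h, live bacteria, dosed at 20 to 100 for each Caco-2 cell, over 8 h, or cell-free culture supernatant at 10% for 24 h. The bacteria were L. acidophilus NCFM™ (below, NCFM), the bifidobacterium B. lactis 420, and the strain Ls-33 of L. salivarius. In the E. coli set, with 3 arrays a group, cells received medium alone for 24 h or cell-free supernatant of enterohaemorrhagic E. coli O157:H7 at 5% for 24 h. Labelling started from 5 µg of RNA in the probiotic set and from 1 µg in the E. coli set. All 9 groups share 1 cell line, and there was no group with broth alone. The probiotic supernatants were set against 8 h medium, so the treatment and the longer time cannot be told apart in those comparisons. The study describes the probiotic arrays as duplicates, and nothing says that they came from separate cultures, so p-values measure only the spread between arrays, which may be technical.

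These families carry the bulk salts of the gut. At the apical membrane of absorptive enterocytes SLC26A3 exchanges luminal chloride for bicarbonate and works beside the sodium/proton exchangers SLC9A3 and SLC9A2, so that sodium chloride is taken up and water follows, and inherited loss of SLC26A3 causes congenital chloride diarrhoea. Chloride secretion runs the other way, with SLC12A2 loading sodium, potassium and chloride across the basolateral membrane and chloride leaving through the apical channel CFTR. Most SLC4 carriers move bicarbonate and set the pH of the cell, and SLC20 and SLC34 carriers take up phosphate with sodium.

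The promoter of SLC26A3 is printed because SLC26A3 was the carrier with a called log2 change of more than 1 in size in all 3 co-cultures. SLC26A2, SLC12A2, SLC4A7 and SLC20A1 were called in the same comparisons. Of these, the promoters of SLC26A2, SLC12A2 and SLC4A7, chosen after their values were seen, are set beside that of SLC26A3. Each is the window of 250 bases before a transcription start in RefSeq on GRCh38.p14, printed on the gene's strand, with capitals marking the motif matches named in the text that follows. They lie at chr7:107803224-107803473 on the minus strand (SLC26A3), at chr5:149960508-149960757 on the plus strand (SLC26A2) and at chr5:128083516-128083765 on the plus strand (SLC12A2). SLC4A7 has 2 listed starts on the minus strand, with windows at chr3:27484385-27484634 and chr3:27456779-27457028.
SLC26A3: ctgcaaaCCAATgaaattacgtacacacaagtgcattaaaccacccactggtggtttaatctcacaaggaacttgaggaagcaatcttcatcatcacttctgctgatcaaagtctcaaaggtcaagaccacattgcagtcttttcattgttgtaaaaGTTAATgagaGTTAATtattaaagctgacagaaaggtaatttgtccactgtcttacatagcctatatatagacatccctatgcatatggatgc
SLC26A2: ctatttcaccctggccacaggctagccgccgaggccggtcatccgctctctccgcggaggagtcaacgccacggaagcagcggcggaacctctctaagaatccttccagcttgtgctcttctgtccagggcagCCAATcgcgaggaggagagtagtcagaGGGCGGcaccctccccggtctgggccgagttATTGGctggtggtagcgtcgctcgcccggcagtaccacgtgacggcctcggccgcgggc
SLC12A2: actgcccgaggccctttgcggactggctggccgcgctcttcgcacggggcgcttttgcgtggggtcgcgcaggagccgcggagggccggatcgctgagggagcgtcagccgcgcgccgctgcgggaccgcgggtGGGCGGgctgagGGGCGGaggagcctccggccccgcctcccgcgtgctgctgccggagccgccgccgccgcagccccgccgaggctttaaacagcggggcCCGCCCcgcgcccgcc
SLC4A7, first window: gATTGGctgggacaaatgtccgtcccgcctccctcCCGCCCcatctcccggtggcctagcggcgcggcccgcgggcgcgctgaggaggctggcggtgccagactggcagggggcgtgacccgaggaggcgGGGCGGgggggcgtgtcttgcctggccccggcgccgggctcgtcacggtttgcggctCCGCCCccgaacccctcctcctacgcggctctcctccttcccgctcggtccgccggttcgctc
SLC4A7, second window: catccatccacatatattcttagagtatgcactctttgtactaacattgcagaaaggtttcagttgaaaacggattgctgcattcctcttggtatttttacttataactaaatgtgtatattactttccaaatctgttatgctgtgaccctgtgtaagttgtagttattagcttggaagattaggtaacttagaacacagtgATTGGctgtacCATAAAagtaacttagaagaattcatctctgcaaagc

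The 5 windows differ in base composition. GC content was 37.6% in the SLC26A3 window, 66% in the SLC26A2 window, 79.6% in the SLC12A2 window, and 76% and 34.8% in the SLC4A7 windows, against a median of 58% over all 35116 promoter windows of the same table. The SLC26A3 window held GTTAAT, a half-site of the enterocyte factor HNF1, at -93 and -83 from the start, and a CCAAT box at -243. GTTAAT was found on either strand in 6.23% of all windows and in 6 of the 56 windows of the carriers. GGGCGG, the GC box, was found in 42.6% of all windows and in 24 of the 56. It occurred in the SLC26A2, SLC12A2 and first SLC4A7 windows and not in the SLC26A3 window. The second SLC4A7 window held CCAAT, read on the other strand, at -48 and TTTATG, a core of CDX sites, on the other strand at -37. CCAAT was present in 32% and TTTATG in 9.64% of all windows. The windows were matched for 35 of the 39 carriers, and SLC4A1, SLC4A11, SLC20A2 and SLC26A11 were not among them. A match states only that the letters are there.

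All 12 enterocyte markers examined, among them VIL1, CDX2, FABP1, ALPI and SI, lay above the floor in their mean over all arrays. Their summed signal on the linear scale was 44290 to 45810 in 8 h medium and 34450 to 39390 in the co-cultures. In the probiotic supernatants it was 48570 to 50170. The E. coli arrays gave 39790 to 40070 in medium and 28660 to 30560 with the supernatant. The markers split by call. In every co-culture VIL1, LGALS4, FABP1, ALPI, ANPEP, DPP4 and APOA4 were called lower and KRT8 and SI higher. KRT20 was higher with live B. lactis 420 and live Ls-33. In every probiotic supernatant KRT20 and APOA4 were higher and KRT8 lower, and CDH1 was higher with those of B. lactis 420 and Ls-33. With E. coli supernatant VIL1, CDH1, LGALS4, FABP1, ANPEP, DPP4 and APOA4 were lower and CDX2, KRT20 and SI higher. Of 9 markers of leukocytes, endothelium and fibroblasts, 5 lay under the floor in their mean over all arrays (PTPRC, CD3E, VWF, COL1A2 and DCN). The other 4 lay above it, with a mean log2 signal over all arrays of 11.05 for COL1A1, 8.72 for PECAM1, 6.26 for COL3A1 and 4.18 for ITGAM. COL1A1 was called higher and PECAM1 and COL3A1 lower in every co-culture, and ITGAM was called lower with live Ls-33. With E. coli supernatant COL1A1 and PECAM1 were called lower and ITGAM higher. COL1A2 passed the floor of the E. coli set and was called lower there. The summed signal of all 9 was 2784 to 3016 in 8 h medium and 2929 to 3323 in the co-cultures, and in the E. coli set 2687 to 3016 in medium and 1481 to 1513 with the supernatant. The 3' minus 5' difference of the actin control probe sets, a sign of RNA quality, was 0.80 to 0.88 in 8 h medium, 1.08 to 1.54 in the co-cultures and 1.02 to 1.11 in the probiotic supernatants, on the log2 scale. It was 1.90 to 2.17 in 24 h medium and 2.12 to 2.22 with E. coli supernatant. The part of these shifts in the results was not tested. In bulk RNA, fewer cells of a type and less RNA per cell cannot be told apart. Replicate arrays correlated at 0.994 to 0.997 over 13 pairs.

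In the co-cultures, 5 carriers were called in the same direction with all 3 strains, which share the medium arrays. SLC26A3, SLC26A2 and SLC20A1 fell and SLC12A2 and SLC4A7 rose with each live strain. The share of all genes called alike with all 3 strains was not counted, so these 5 cannot be set against a background. With live NCFM 3 carriers rose and 3 fell of 22 tested, against 35.3% of all 11865 genes called in that comparison (16.8% higher and 18.4% lower). With live B. lactis 420 4 rose and 4 fell, against 35.3% of all genes (18.3% higher and 16.9% lower). Live Ls-33 raised 2 and lowered 5, against 38.7% of all genes (19.4% higher and 19.3% lower). A gene was called at an adjusted p under 0.05. The share of carriers called was thus 27.3% with live NCFM, 36.4% with live B. lactis 420 and 31.8% with live Ls-33, near the background of all genes. The median log2 change of the carriers tested was -0.12, -0.08 and -0.09, against -0.006, 0.009 and -0.008 over all genes. The arrays of the 2 groups did not overlap for 14, 15 and 11 of the 22 carriers in the same order of strains, and for 64.7%, 67% and 69.7% of all genes. The count with B. lactis 420 fell to 5 without the second array of 8 h medium or the second array of live B. lactis 420.

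The probiotic supernatants moved fewer carriers. NCFM supernatant lowered 3 and raised none, against 11.3% of all genes called (5.28% higher and 5.98% lower). B. lactis 420 supernatant lowered 3 and raised 1, against 15.2% (5.98% higher and 9.2% lower). Ls-33 supernatant lowered 4 and raised none, against 16.6% (8.48% higher and 8.14% lower). SLC12A9, SLC20A1 and SLC26A11 were lower with all 3, and these comparisons share the 2 arrays of 8 h medium. The share of all genes lower with all 3 supernatants was not counted. E. coli supernatant raised 6 and lowered 10 of 25 carriers tested, with 64.1% of all genes called in that comparison (36.3% higher and 27.8% lower). The arrays did not overlap for 12, 14 and 12 carriers with the 3 supernatants (54.4%, 57.6% and 58.8% of all genes) and for 17 of 25 with that of E. coli (69%). These counts rest on single arrays in places. No carrier was called for NCFM supernatant without its first array. For B. lactis 420 supernatant 1 was called without the second medium array or without either of its own arrays, and for Ls-33 supernatant 2 were called without the second medium array or its own second array.

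**Figure D1:**
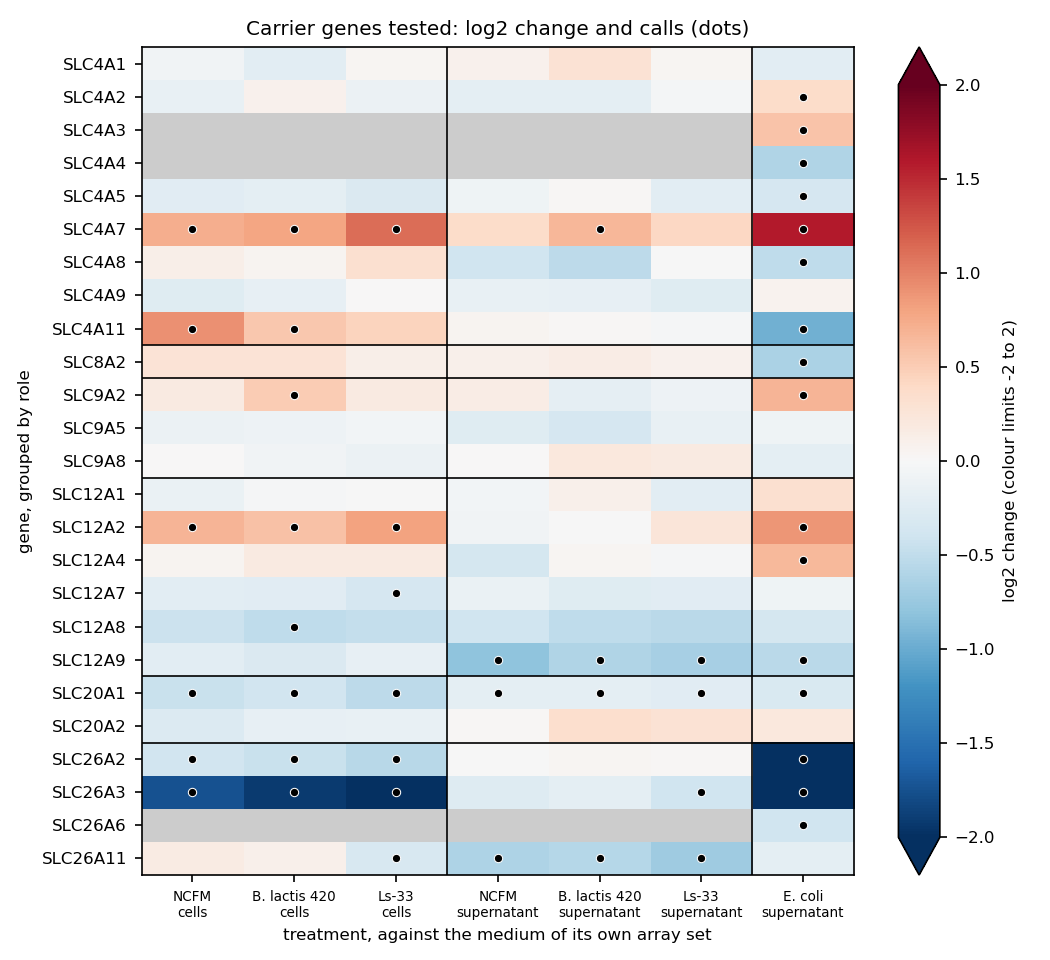
Log2 change of the 25 carriers tested (vertical axis, grouped by role) in each of 7 treatments against the medium of its own array set (horizontal axis), with colour limits of -2 and 2, dots for genes called at an adjusted p under 0.05 and grey for genes under the floor. SLC26A3 and SLC26A2 are blue in all 3 co-cultures and deepest with E. coli supernatant, and SLC4A7 and SLC12A2 are red in the same 4 columns.

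Among the SLC26 anion exchangers, SLC26A3 gave the widest changes of any carrier tested against co-culture or E. coli medium controls. Its log2 signal was 8.32 and 8.30 in 8 h medium. It was 6.44 and 6.70 with live NCFM, 6.34 and 6.45 with live B. lactis 420, and 6.28 and 6.28 with live Ls-33. All 6 co-culture arrays lay more than 1 log2 unit under both medium arrays. The log2 change was -1.74 ± 0.11 (SE) with live NCFM, a 3.33-fold fall (adjusted p = 6.2e-10, limma). It was -1.91 ± 0.11 with live B. lactis 420 and -2.03 ± 0.11 with live Ls-33, falls of 3.77-fold and 4.07-fold. All 3 calls held under every alternative run.

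With the supernatants SLC26A3 lay nearer to medium. It was 8.00 and 8.10 with NCFM supernatant, 8.15 and 8.09 with that of B. lactis 420, and 7.85 and 7.96 with that of Ls-33. All 6 arrays were lower than both medium arrays, but only the Ls-33 difference was called, at -0.40 ± 0.11 (adjusted p = 0.0202). That call was lost without any 1 of the 4 arrays compared, with adjusted p between 0.0667 and 0.144. The 95% interval of the change was -0.50 to -0.02 with NCFM supernatant and -0.43 to 0.05 with B. lactis 420 supernatant.

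E. coli supernatant lowered SLC26A3 furthest. Signal was 8.55, 8.45 and 8.66 in 24 h medium and 5.03, 4.05 and 4.48 with the supernatant, so the groups lay apart and the treated arrays spread over about 1 log2 unit. The change was -4.03 ± 0.20, a 16.4-fold fall with a 95% interval of -4.48 to -3.59 on the log2 scale (adjusted p = 1.24e-08). The gene's other probe set lay under the floor and was not tested.

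SLC26A2, a sulfate and anion exchanger whose loss causes skeletal dysplasias, moved in the same direction by less in the co-cultures. Its signal was 12.90 and 12.99 in 8 h medium, 12.56 and 12.56 with live NCFM, 12.48 and 12.53 with live B. lactis 420, and 12.40 and 12.37 with live Ls-33. The replicate arrays lay within 0.1 log2 units of each other and the co-cultures did not overlap with medium. The falls were -0.39, -0.44 and -0.56, each ± 0.038 (SE; adjusted p = 1.66e-07, 2.23e-08 and 6.27e-10). With the supernatants all 6 arrays lay between 12.94 and 13.00, inside or at the edge of the range of medium.

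E. coli supernatant took SLC26A2 from 12.58, 12.58 and 12.57 to 10.05, 9.76 and 9.90. The change was -2.67 ± 0.067, a 6.37-fold fall (adjusted p = 9.58e-11). The gene's other probe sets fell too, by 2.22 and 3.09 on the log2 scale with E. coli supernatant, and both were called lower in each co-culture.

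SLC26A11, a sulfate transporter of lysosomes and plasma membrane, behaved differently. Signal was 7.26 and 7.27 in 8 h medium, 7.51 and 7.34 with live NCFM, 7.37 and 7.36 with live B. lactis 420, and 6.92 and 6.96 with live Ls-33. It was 6.54 and 6.76, 6.70 and 6.69, and 6.63 and 6.48 with the supernatants of NCFM, B. lactis 420 and Ls-33. The supernatants thus lay under medium without overlap, with changes of -0.61, -0.57 and -0.71, each ± 0.12 (adjusted p = 0.00287, 0.00372 and 0.000566). The NCFM call was lost without the first NCFM supernatant array, at -0.51 (adjusted p = 0.058).

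Of the live strains, Ls-33 lowered SLC26A11 by 0.32 ± 0.12 (adjusted p = 0.0441), a call lost without either Ls-33 array, either medium array or either B. lactis 420 co-culture array. In the E. coli set SLC26A11 was 7.60, 7.30 and 7.23 in 24 h medium and 7.08, 7.22 and 7.24 with the supernatant, which overlap. The change of -0.20 ± 0.12 was not called. Array set, RNA input and time differ between the 2 media, and the part of time in the probiotic supernatant values was not tested.

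SLC26A6, an apical chloride, bicarbonate and oxalate exchanger, was tested in the E. coli set alone. It was 3.72, 3.66 and 3.71 in medium and 3.55, 3.21 and 3.15 with the supernatant, a change of -0.40 ± 0.14 (adjusted p = 0.0293). SLC26A1, SLC26A4, SLC26A8 and SLC26A9 lay under the floor in both sets. SLC26A9, a chloride transporter of stomach and airway, was 2.09, 2.43 and 2.05 in 24 h medium and 2.84, 3.11 and 2.78 with E. coli supernatant. Its mean over these 6 arrays stayed under the floor, so it was not tested.

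**Figure D2:**
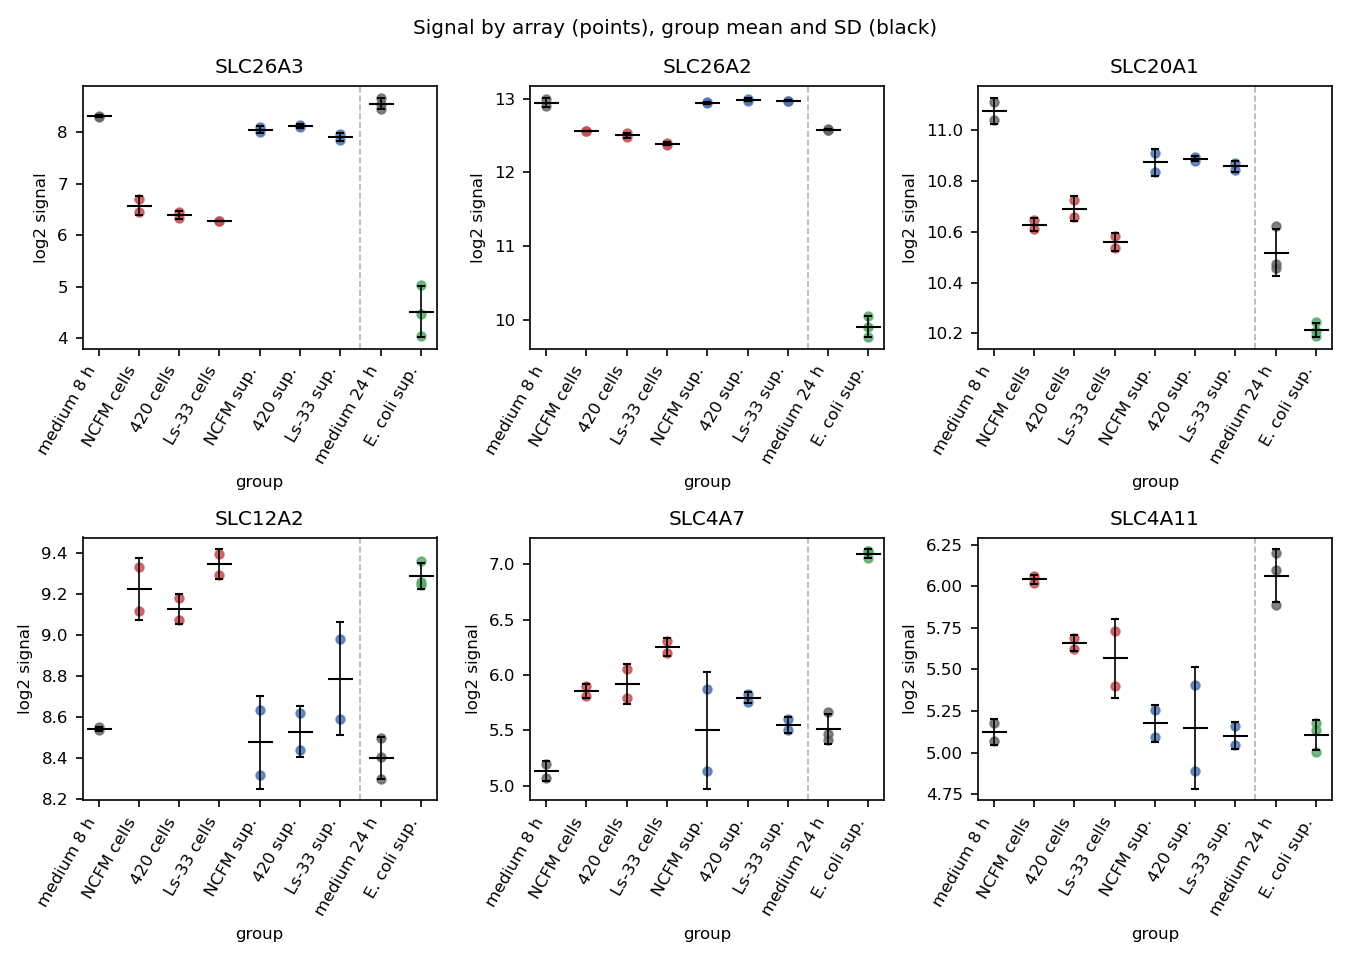
Log2 signal on each array (points) with the group mean and SD (black) for 6 carriers in the 9 groups, the probiotic set left and the E. coli set right of the dashed line, each panel with its own axis. SLC26A3 drops from 8.30 or more in 8 h medium to 6.70 or less in every co-culture array and to 5.03 or less with E. coli supernatant, while SLC4A7 rises in the same groups.

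Among the phosphate carriers, SLC20A1, a sodium/phosphate cotransporter found in most cells, was lower in all 7 comparisons. Signal was 11.04 and 11.11 in 8 h medium, 10.61 and 10.64 with live NCFM, 10.73 and 10.66 with live B. lactis 420, and 10.54 and 10.58 with live Ls-33. The changes were -0.45, -0.39 and -0.52, each ± 0.053 (adjusted p = 1.91e-06, 1.21e-05 and 2.21e-07), and no alternative ended these calls.

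With the supernatants SLC20A1 was 10.84 and 10.91, 10.88 and 10.90, and 10.84 and 10.87, all under both medium arrays. The changes of -0.20, -0.19 and -0.22 were called (adjusted p = 0.0171, 0.0207 and 0.00748) but none was called when the variance was fitted without a trend on mean signal, and all 3 were lost without the second medium array. The NCFM call was also lost without the first array of that supernatant, the B. lactis 420 call without either of its arrays and the Ls-33 call without its first. The E. coli supernatant lowered SLC20A1 from 10.62, 10.46 and 10.47 to 10.21, 10.24 and 10.19, by 0.30 ± 0.064 (adjusted p = 0.00126).

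The other probe set of SLC20A1 did not follow in the supernatants. It fell by 0.78, 0.80 and 1.63 in the co-cultures and by 1.78 with E. coli supernatant, but rose by 0.49 with NCFM supernatant and 0.36 with that of B. lactis 420, both called when every named probe set was tested. It rose by 0.31 with Ls-33 supernatant, which was not called. The direction of SLC20A1 with supernatants therefore depends on the probe set.

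SLC20A2, its relative, had no called change against medium. SLC34A2, the apical sodium/phosphate cotransporter of small intestine and lung, lay under the floor on every array, between 1.62 and 2.21. SLC34A1 and SLC34A3, the kidney forms, were under it as well.

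Of the SLC12 cotransporters, SLC12A2 rose with live bacteria and E. coli supernatant. Signal was 8.55 and 8.54 in 8 h medium, 9.12 and 9.33 with live NCFM, 9.07 and 9.18 with live B. lactis 420, and 9.40 and 9.29 with live Ls-33, without overlap. The rises were 0.68, 0.58 and 0.80, each ± 0.12 (adjusted p = 0.000178, 0.000774 and 2.64e-05), or 1.61-fold, 1.5-fold and 1.74-fold. With the supernatants it was 8.63 and 8.32, 8.44 and 8.62, and 8.59 and 8.98, and none was called.

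In the E. coli set SLC12A2 went from 8.40, 8.50 and 8.29 to 9.36, 9.26 and 9.24, a rise of 0.89 ± 0.084 (adjusted p = 2.02e-06). Its second probe set rose too, by 1.03, 1.03 and 1.28 in the co-cultures and by 2.04 with E. coli supernatant. These 4 calls of SLC12A2 held under every alternative run.

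SLC12A9, an orphan member of the cotransporter family, was lower with the supernatants. It was 5.14 and 4.84 in 8 h medium, 4.21 and 4.15 with NCFM supernatant, 4.49 and 4.29 with that of B. lactis 420, and 4.35 and 4.29 with that of Ls-33. The changes were -0.81, -0.60 and -0.66, each ± 0.20 (adjusted p = 0.0124, 0.0491 and 0.0273). The NCFM and Ls-33 calls were lost without the first medium array or either array of the supernatant itself, and the B. lactis 420 call without any of the 8 arrays of medium and supernatants. The B. lactis 420 call was also lost with no floor, without a trend, after joint quantile normalization and with only the groups compared, with adjusted p between 0.0629 and 0.0811.

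With live strains SLC12A9 was 4.95 and 4.58, 4.89 and 4.50, and 5.01 and 4.63, which overlapped with medium for NCFM, B. lactis 420 and Ls-33 alike, and no change was called. E. coli supernatant took it from 4.43, 4.58 and 4.76 to 4.27, 4.02 and 3.87, a fall of 0.54 ± 0.16 (adjusted p = 0.0103). Without the third E. coli array the change was -0.45 (adjusted p = 0.0545). The 24 h medium arrays lay under both 8 h medium arrays, and array set, RNA input and time cannot be told apart there.

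SLC12A4, a potassium/chloride cotransporter that takes part in volume regulation, rose with E. coli supernatant from 3.50, 3.73 and 3.63 to 4.36, 4.09 and 4.36. The rise was 0.65 ± 0.14 (adjusted p = 0.00187), and its 2 other tested probe sets, at 0.27 and 0.009, were not called. In the probiotic set its changes ran from -0.35 to 0.18 with no call. SLC12A7, another potassium/chloride cotransporter, fell by 0.33 ± 0.10 with live Ls-33 (adjusted p = 0.0154) and was called in no other comparison with medium.

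SLC12A8, which has been described as a carrier of polyamines and of a nicotinamide nucleotide, was 3.43 and 3.86 in 8 h medium and 3.32 and 2.98 with live B. lactis 420. The change of -0.50 ± 0.19 was called (adjusted p = 0.0414) and was lost with no floor on signal, with only the groups compared and without the second array of either group. The other co-cultures and the supernatants gave changes of -0.39 to -0.54 that were not called. SLC12A1, the kidney cotransporter, was called nowhere, and SLC12A3 and SLC12A5 lay under the floor.

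Of the SLC4 family, SLC4A7, an electroneutral sodium/bicarbonate cotransporter, rose in all 3 co-cultures. Signal was 5.20 and 5.07 in 8 h medium, 5.90 and 5.81 with live NCFM, 5.79 and 6.05 with live B. lactis 420, and 6.20 and 6.31 with live Ls-33, without overlap. The rises were 0.72, 0.78 and 1.12, each ± 0.20 (adjusted p = 0.00706, 0.00388 and 0.000146). The NCFM call was lost without the second medium array, at 0.66 (adjusted p = 0.0551), and the B. lactis 420 call without the second array of that co-culture, at 0.65 (adjusted p = 0.0512).

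With supernatants SLC4A7 was 5.87 and 5.13, 5.76 and 5.83, and 5.50 and 5.60. The B. lactis 420 rise of 0.66 ± 0.20 was called (adjusted p = 0.0271), but not without any 1 of the 4 arrays compared, nor without a trend (adjusted p = 0.0581), nor on the gene's other tested probe set, at 0.48 (adjusted p = 0.0839). The NCFM rise of 0.37 and the Ls-33 rise of 0.42 were not called. With E. coli supernatant SLC4A7 went from 5.47, 5.41 and 5.67 to 7.12, 7.12 and 7.05, a 2.99-fold rise of 1.58 ± 0.13 (adjusted p = 5.41e-07). Another tested probe set rose by 0.61, 0.88 and 1.00 in the co-cultures and by 1.03 with E. coli supernatant, all called.

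SLC4A11, a membrane carrier of protons and water in corneal endothelium, went opposite ways. It was 5.18 and 5.07 in 8 h medium, 6.06 and 6.02 with live NCFM, 5.62 and 5.69 with live B. lactis 420, and 5.73 and 5.40 with live Ls-33, with no overlap. The rises were 0.92 with NCFM and 0.53 with B. lactis 420 (adjusted p = 0.000623 and 0.0293, each ± 0.18), and 0.44 with Ls-33 was not called. The B. lactis 420 call was lost without any 1 of the 4 arrays compared, with adjusted p between 0.0651 and 0.136.

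E. coli supernatant took SLC4A11 from 5.89, 6.20 and 6.10 to 5.14, 5.18 and 5.01, a fall of 0.95 ± 0.14 (adjusted p = 9.53e-05). The other probe set of SLC4A11, at a signal near the floor, changed by -0.12 and -0.08 with NCFM and live B. lactis 420 and by -0.31 with E. coli supernatant, none of which was called.

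The remaining SLC4 calls came from the E. coli set. SLC4A3, an anion exchanger, rose from 2.95, 2.97 and 3.07 to 3.56, 3.57 and 3.56, by 0.57 ± 0.12 (adjusted p = 0.00161). SLC4A8, a sodium-driven chloride/bicarbonate exchanger, fell from 5.04, 5.21 and 5.35 to 4.59, 4.67 and 4.80, by 0.51 ± 0.15 (adjusted p = 0.00957), and of its 3 other tested probe sets 2 fell, by 1.13 and 1.00. SLC4A4, an electrogenic sodium/bicarbonate cotransporter, went from 3.14, 3.32 and 3.79 to 3.01, 2.38 and 3.07. Its fall of 0.60 ± 0.21 (adjusted p = 0.0237) was lost without the third medium array, at -0.41 (adjusted p = 0.126), or the second E. coli array, at -0.38 (adjusted p = 0.115).

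SLC4A2, the housekeeping anion exchanger, rose by 0.36 ± 0.12 and SLC4A5 fell by 0.34 ± 0.12 with E. coli supernatant (adjusted p = 0.0221 and 0.0287). SLC4A1 and SLC4A9 were not called against medium anywhere, and SLC4A10 lay under the floor.

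The sodium/proton and sodium/calcium exchangers gave few calls. SLC9A3, the main apical sodium/proton exchanger of the intestine, lay under the floor on all 20 arrays, between 1.65 and 2.18, so its level was not measured here. SLC9A2, the other apical form, was 3.07 and 2.87 in 8 h medium and 3.62 and 3.35 with live B. lactis 420, a rise of 0.51 ± 0.18 (adjusted p = 0.0328). This call was lost with no floor on signal, after joint quantile normalization, and without the second medium array or the first array of the co-culture. NCFM and live Ls-33 gave 0.18 and 0.17, not called.

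With E. coli supernatant SLC9A2 rose from 3.08, 3.36 and 2.96 to 3.84, 3.87 and 3.72, by 0.68 ± 0.14 (adjusted p = 0.0014), without overlap. SLC8A2, a sodium/calcium exchanger best known from brain, fell from 3.24, 3.20 and 2.96 to 2.46, 2.39 and 2.64, by 0.64 ± 0.13 (adjusted p = 0.00129). Its 3 treated arrays lay under the floor. SLC9A5 and SLC9A8 were called in no comparison with medium, and together with SLC4A9 and SLC12A1 their changes ran from -0.34 to 0.32. SLC8A1, SLC8A3 and SLC9A9 lay under the floor.

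Probe sets of a gene were set side by side because each gene was represented by 1 of them, the one with the highest mean. Of the carriers, 8 had 2 or more tested probe sets in the probiotic set and 9 in the E. coli set. At least 2 were called for 4 of the 8 in each co-culture and for 6 of the 9 with E. coli supernatant, always in the same direction. The one gene called in opposite directions was SLC20A1, with NCFM and B. lactis 420 supernatants. SLC20A2 had a probe set that rose by 1.25 with E. coli supernatant, while the one chosen gave 0.21, not called.

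**Figure D3:**
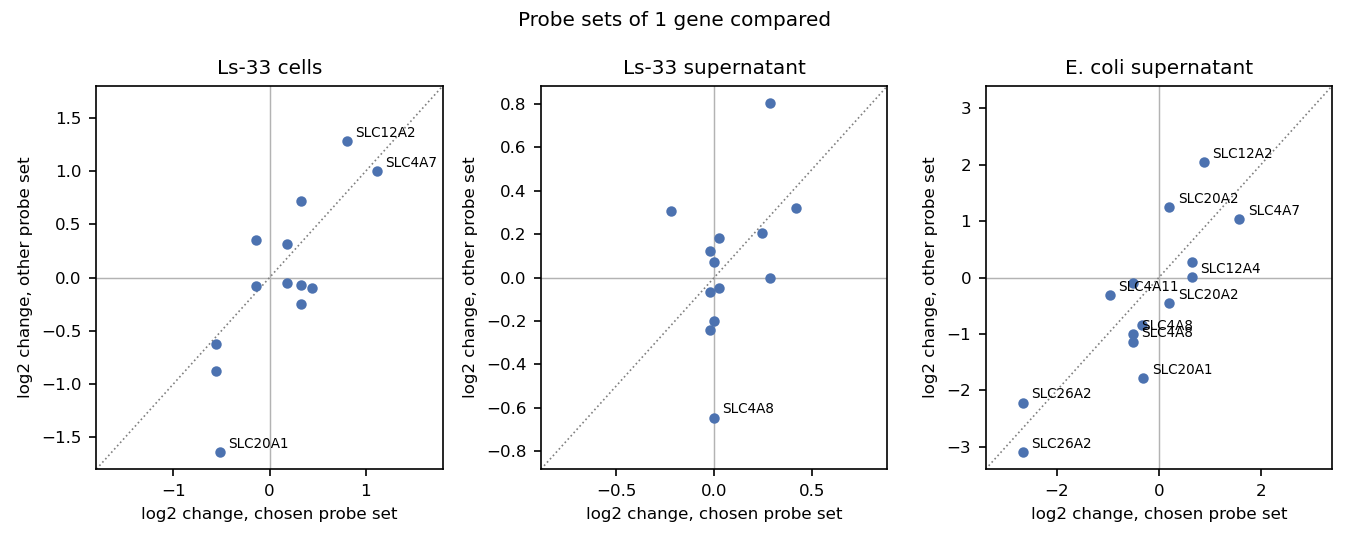
Log2 change of each other tested probe set (vertical axis) against that of the chosen probe set of the same gene (horizontal axis) with live Ls-33, Ls-33 supernatant and E. coli supernatant, the dotted line marking equal changes and names given where probe sets differ by over 0.6 or the other one exceeds 0.9 in size. SLC26A2, SLC12A2 and SLC4A7 keep their direction on both axes in the panels of live Ls-33 and E. coli supernatant, and SLC20A1 moves further on its other probe set.

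The 3 strains were also compared with each other. A moderated F-test over the live strains called 2 carriers, SLC26A11 and SLC26A2 (adjusted p = 0.0178 and 0.0114), with 13.7% of all genes called. SLC26A11 was lower with Ls-33 than with live NCFM by 0.48 and than with live B. lactis 420 by 0.43 (adjusted p = 0.0107 and 0.0467), and SLC26A2 was lower with Ls-33 than with live NCFM by 0.17 (adjusted p = 0.00395). Between live Ls-33 and NCFM 14.7% of all genes were called (8.13% higher and 6.55% lower with Ls-33), and between live Ls-33 and B. lactis 420 5.58% (2.88% higher and 2.7% lower with Ls-33). No carrier was called between B. lactis 420 and live NCFM, where 3.03% of all genes were (2.28% higher and 0.759% lower with B. lactis 420).

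The group means of SLC26A3 ranged over 0.29 among the live strains (adjusted p = 0.194) and those of SLC4A7 over 0.39 (adjusted p = 0.291), neither of which was called. The call of SLC26A11 between Ls-33 and B. lactis 420 was lost without either array of these co-cultures, with adjusted p between 0.135 and 0.224, and also without either medium array or any array of these strains' supernatants. The F-test called no carrier without either array of live Ls-33, and 1 carrier was called between Ls-33 and NCFM without the second array of live Ls-33. Between Ls-33 and NCFM the call of SLC26A11 was lost without the first array of live NCFM or either of live Ls-33, and that of SLC26A2 when the variance was fitted without a trend. Among the supernatants the F-test called no carrier, with 2 at an unadjusted p under 0.05, and 4 genes in all (0.0337%).

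Live cells and supernatant of the same strain were compared directly, without the medium arrays, but they differ in time (8 h and 24 h), so format and time cannot be told apart. With NCFM 4 carriers were higher and 3 lower with live cells (36.9% of all genes called, 18.6% higher and 18.3% lower). With B. lactis 420 5 were higher and 5 lower (37.9%, 22.2% higher and 15.7% lower), and with Ls-33 3 were higher and 3 lower (33%, 16.6% higher and 16.3% lower). SLC12A2 and SLC26A11 were higher and SLC20A1, SLC26A2 and SLC26A3 lower with live cells in all 3 strains. How many of all genes were called alike in all 3 was not counted. For SLC26A3 the differences were -1.48, -1.72 and -1.62, each ± 0.11, with the 6 live arrays between 6.28 and 6.70 and the 6 supernatant arrays between 7.85 and 8.15. SLC26A11 differed by 0.77, 0.68 and 0.39, each ± 0.12. Its Ls-33 call was lost without either array of live Ls-33 or the second array of that supernatant, with adjusted p between 0.0642 and 0.159. The SLC20A1 call for B. lactis 420 was lost without a trend (adjusted p = 0.0528, limma) and without the second array of that co-culture (adjusted p = 0.07, limma). The B. lactis 420 count of 10 was 5 without the first array of that co-culture and 6 without the first array of that supernatant.

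**Figure D4:**
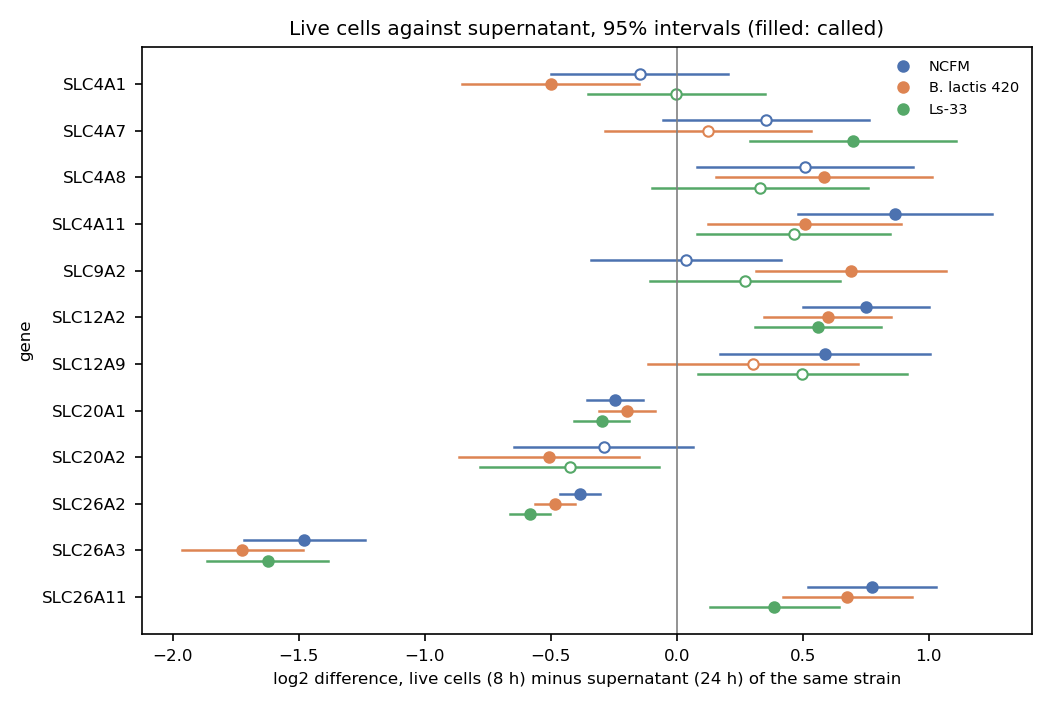
Log2 difference between live cells at 8 h and supernatant at 24 h of the same strain (horizontal axis) with 95% intervals for the 12 carriers called in at least 1 strain (vertical axis), filled points marking calls. SLC26A3 lies furthest left, at -1.48, -1.72 and -1.62, and SLC12A2 and SLC26A11 lie right of 0 in all 3 strains.

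Of 54 pumps, channels, enzymes and partners of the carriers listed, 51 had a named probe set, and 38 were tested in the probiotic set and 37 in the E. coli set. Live NCFM raised 5 and lowered 12, live B. lactis 420 raised 8 and lowered 10, and live Ls-33 raised 9 and lowered 11, beside 35.3%, 35.3% and 38.7% of all genes called. The supernatants raised 4, 3 and 2 and lowered 3, 5 and 4 in the same order of strains, beside 11.3%, 15.2% and 16.6% of all genes. E. coli supernatant raised 16 and lowered 14, beside 64.1%. Leaving out 1 array moved the supernatant counts to between 2 and 9 called in all.

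CFTR, the apical chloride and bicarbonate channel, rose with live bacteria and fell with probiotic supernatants. It was 5.33 and 5.21 in 8 h medium, 6.33 and 6.33, 6.45 and 6.27, and 6.42 and 6.19 with the live strains, and 4.71 and 4.67, 4.64 and 4.43, and 4.33 and 4.60 with their supernatants. The 3 kinds of array did not overlap. The rises were 1.06, 1.09 and 1.04 and the falls 0.58, 0.74 and 0.80, each ± 0.17 (adjusted p between 4.05e-05 and 0.0287). The fall with NCFM supernatant was lost without any 1 of the 4 arrays compared, and that with B. lactis 420 without its second supernatant array.

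In 24 h medium, which differs from 8 h medium in array set, RNA input and time, CFTR was 4.60, 4.44 and 4.82. It rose to 5.74, 5.92 and 5.72 with E. coli supernatant, by 1.17 ± 0.15 (adjusted p = 2.97e-05). One other probe set of CFTR gave 0.29 and 0.20 with live NCFM and live B. lactis 420, not called. On the same probe set the supernatant changes were -0.54 with NCFM and -0.22 with B. lactis 420, and on another of its probe sets they were -0.61 and -0.53, none of which was called.

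The scaffold PDZK1, which anchors several carriers at the apical membrane, showed the deepest fall of this list. It was 8.75 and 8.55 in 8 h medium, 6.49 and 6.41 with live NCFM, 6.14 and 6.27 with live B. lactis 420, and 5.49 and 5.35 with live Ls-33. The changes were -2.20, -2.45 and -3.23, each ± 0.11 (adjusted p = 1.54e-11, 3.03e-12 and 3.69e-14). With supernatants it was between 8.36 and 8.64, not called. E. coli supernatant took it from 9.27, 9.50 and 9.43 to 6.90, 6.71 and 6.90, a 5.91-fold fall of 2.56 ± 0.10. PDZK1 was thus called lower in the 4 treatments in which SLC26A2 was, and the 3 co-cultures share their medium arrays. The pattern was not particular to PDZK1. FXYD3, GUCA2B, GUCY2C, ATP1B1, KCNK5 and NHERF1 of this list were called lower in the same 4 treatments. Unlike PDZK1, KCNK5 was also called lower with each probiotic supernatant and NHERF1 with that of Ls-33. NHERF4, a related scaffold, fell by 1.03 with live Ls-33 and 0.66 with E. coli supernatant.

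STK39, a kinase that activates SLC12A2, rose in all 7 comparisons. It was 5.41 and 6.29 in 8 h medium, the widest gap of that pair among the genes given by array, and 6.84 to 7.53 in the 6 co-culture arrays. The rises were 1.43, 1.17 and 1.51 with live strains and 0.89, 0.74 and 1.18 with supernatants, each ± 0.24. The supernatant calls were lost without the first medium array, at 0.45, 0.30 and 0.74. The NCFM call was also lost without the first array of that supernatant, at 0.63, and the B. lactis 420 call without the second array of that supernatant, at 0.52. Both were lost without a trend (adjusted p = 0.0996 and 0.134), and the B. lactis 420 call with no floor or only the groups compared (adjusted p = 0.0523 and 0.0739). With E. coli supernatant it rose by 0.77 ± 0.16 (adjusted p = 0.00131). WNK4, a kinase upstream of STK39, fell by 0.94 with live Ls-33, a call lost without the first array of either group, and by 1.58 with E. coli supernatant (adjusted p = 0.0106 and 1.21e-06).

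The carbonic anhydrases, which supply bicarbonate, split in the co-cultures only. CA2, the cytosolic form, was 7.59 and 7.56 in 8 h medium and 8.07 to 8.48 in the co-cultures, with rises of 0.89, 0.86 and 0.49, each ± 0.11. CA12, a membrane form, fell by 1.02, 0.86 and 0.48 in the co-cultures and rose by 1.18, 0.86 and 0.80 with the supernatants and by 0.98 with E. coli supernatant. CA13 was called higher with live B. lactis 420 and live Ls-33. With E. coli supernatant CA2 and CA13 were called higher along with CA12. With the probiotic supernatants CA12 was the only carbonic anhydrase called. The CA12 fall with live Ls-33 was called at an adjusted p of 0.0399 and was lost without the second medium array, at -0.34, or the first array of live Ls-33, at -0.27, without either array of Ls-33 supernatant, and with only the groups compared. The rise with Ls-33 supernatant was lost without the first medium array, at 0.66, or the second array of that supernatant, at 0.75. With live Ls-33 the 4 other tested probe sets of CA12 gave -0.35, -0.17, -0.10 and 0.0050, none called. In each of the other co-cultures and with E. coli supernatant 2 of the other probe sets were not called either, at -0.49 and -0.25 with live NCFM, -0.29 and -0.32 with live B. lactis 420, and 0.23 and 0.20 with E. coli supernatant.

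FXYD3, a regulator of the sodium pump, fell by 1.63, 1.28 and 1.46 with live strains and by 1.77 with E. coli supernatant. The signalling peptide GUCA2B (uroguanylin) fell by 0.93, 0.99 and 1.25, and its receptor GUCY2C, guanylate cyclase C, by 0.36, 0.35 and 0.36. With E. coli supernatant they fell by 1.00 and 1.19. ANO1, a calcium-gated chloride channel, fell with E. coli supernatant, from 6.24, 6.21 and 6.07 to 4.54, 3.78 and 4.05 (-2.05 ± 0.19, adjusted p = 1.52e-06). NEDD4L, a ubiquitin ligase of sodium channels, rose by 0.55 and 0.45 with B. lactis 420 and live Ls-33 and by 1.35 with E. coli supernatant, but another of its probe sets fell by 0.58 with E. coli supernatant. The NEDD4L call with live Ls-33 was lost without the first medium array, at 0.24. Other probe sets of NEDD4L gave changes that were not called. These were 0.19 and -0.014 with live B. lactis 420, 0.25 and 0.089 with live Ls-33, and -0.014 with E. coli supernatant.

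**Figure D5:**
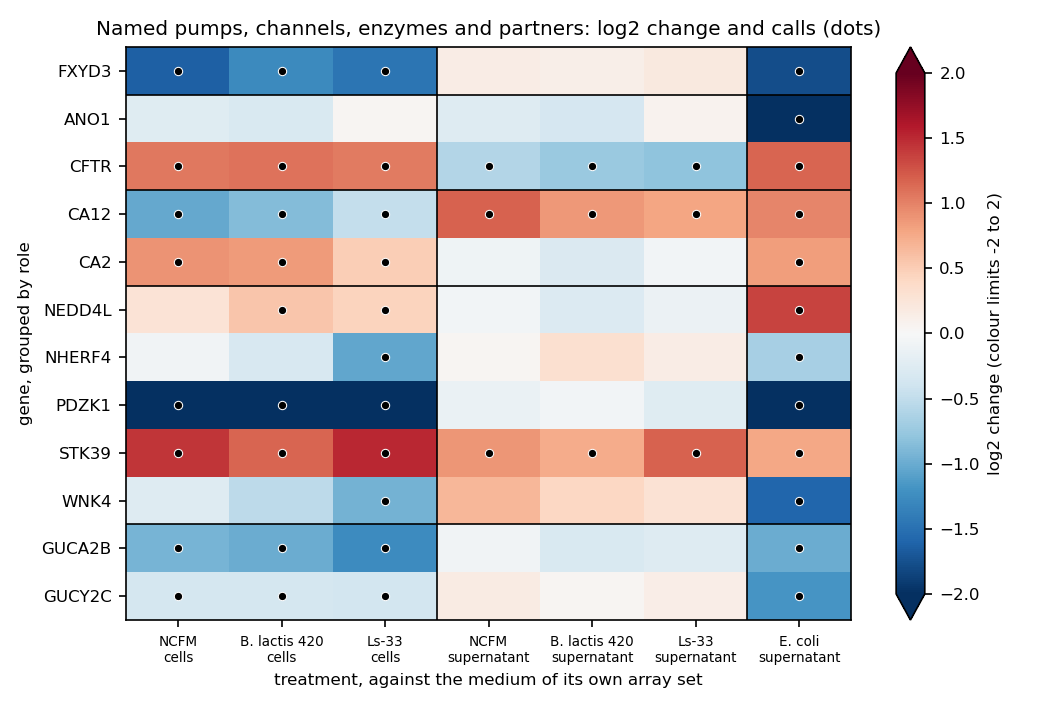
Log2 change of the 12 named pumps, channels, enzymes and partners (vertical axis, grouped by role) in the 7 treatments against the medium of their own array set (horizontal axis), with colour limits of -2 and 2 and dots for calls at an adjusted p under 0.05. PDZK1 and FXYD3 are blue in all co-cultures and with E. coli supernatant, STK39 is red in every column, and CFTR and CA12 change colour between live cells and probiotic supernatants.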

How the data were processed

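The deposited values are log2 probe-set signals that the authors made with RMA, as the submitters' processing notes name it. Not given in the sources used here are its version and whether the probiotic and E. coli arrays were normalized as 1 set. Of 54675 probe sets 41091 carried 1 gene symbol, updated through Entrez identifiers to RefSeq (GRCh38.p14). A gene was represented by its brightest probe set on average across the 20 arrays (one with the suffix _x_at only where there was no other), and 11865 genes above the floor were tested in each set. Models were fitted across genes in limma 3.58.1 under R 4.3.3 (lmFit, eBayes with a trend), over 14 probiotic and 6 E. coli arrays. Adjustment of p over all genes tested followed Benjamini and Hochberg, and ± gives the standard error of a change. The fits were tested on simulated data. Carriers called against medium with a log2 change of 0.5 or more are given array by array, as are SLC26A3, SLC9A3, SLC12A2, SLC20A1 and SLC34A2. Related genes are named when called with a change of 1 or more, as are CFTR and CA2. The members and lists were chosen with earlier results of these data known. Alternatives were the floor, the trend, joint quantile normalization, a replicate block, only the groups compared, all 20 arrays in 1 fit, every probe set and each array left out. The number of arrays limits the precision.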

Additional observations from a re-analysis of the deposited data

Results flagged for a closer look

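The live strains differed from each other by the F-test in SLC26A11 and SLC26A2, with 13.7% of all genes called by that test. The group means ranged over 0.48 log2 units for SLC26A11 and 0.17 for SLC26A2. Both calls rested on single arrays of live Ls-33, as given above.

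Live cells and supernatant of the same strain differed for several carriers, and the difference itself was tested, with format and time not separable. With NCFM the log2 difference, live cells minus supernatant, was 0.75 for SLC12A2, 0.59 for SLC12A9, 0.77 for SLC26A11 and 0.87 for SLC4A11. It was -0.25 for SLC20A1, -0.38 for SLC26A2 and -1.48 for SLC26A3. With B. lactis 420 it was 0.60 for SLC12A2, 0.68 for SLC26A11, 0.51 for SLC4A11, 0.58 for SLC4A8 and 0.69 for SLC9A2, and -0.20 for SLC20A1, -0.48 for SLC26A2 and -1.72 for SLC26A3. SLC20A2 (group means 5.37 with live cells and 5.88 with supernatant) and SLC4A1 (2.84 and 3.34) were also called lower with live B. lactis 420. Neither call was followed gene by gene under the alternatives. The B. lactis 420 calls of SLC4A11 and SLC4A8 were lost after joint quantile normalization (0.39 and 0.46) and without either array of that co-culture or the first array of that supernatant, down to 0.25 and 0.36. SLC4A11 was also lost with only the groups compared and SLC4A8 without a trend. On the other tested probe sets of SLC4A8 the difference was -0.040, 0.13 and 0.33, none of which was called. SLC9A2 was lost without the first array of that co-culture or of that supernatant (0.56 and 0.46). The NCFM call of SLC12A9 was lost without the first array of that co-culture or either array of that supernatant, down to 0.40. With Ls-33 it was 0.56 for SLC12A2, 0.39 for SLC26A11 and 0.70 for SLC4A7, and -0.30 for SLC20A1, -0.58 for SLC26A2 and -1.62 for SLC26A3. The Ls-33 call of SLC4A7 was lost without the second array of that co-culture or the first of that supernatant (0.64 and 0.65).

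SLC4A11 rose with live NCFM (0.92) and live B. lactis 420 (0.53) on every array and fell with E. coli supernatant on every array. This difference was not tested, since the treatments lie in separate array sets with different times and RNA input.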

How the results depend on the processing

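Counts of carriers called stayed within 1.5 times of their value under the alternatives run, except where given here, and the cause of these moves was not tested. With the floor at the 60th percentile 7 carriers were called with E. coli supernatant in place of 16, where fewer carriers were tested. Without a trend 1 was called with B. lactis 420 supernatant in place of 4, 1 between Ls-33 and NCFM cells in place of 2, and 1 by the F-test over live strains in place of 2. With only the groups compared the F-test over live strains called 1, and 10 were called between Ls-33 cells and supernatant in place of 6. Between Ls-33 and B. lactis 420 cells, with 1 called, 0 were called with no filter, with the replicate block or with only the groups compared, and 2 with every probe set. Leaving out 1 array gave 5 to 8 called with B. lactis 420 cells, 1 to 4 with its supernatant, 2 to 5 with Ls-33 supernatant and 0 to 3 with NCFM supernatant. It gave 5 to 10 between B. lactis 420 cells and supernatant, 0 to 1 between Ls-33 and B. lactis 420 cells, 1 to 3 between Ls-33 and NCFM cells, and 0 to 3 by the F-test over live strains. Some values changed sign on another probe set of the gene. SLC4A11 gave -0.12 and -0.077 with NCFM and B. lactis 420 cells and -0.25 and -0.18 for cells minus supernatant of these strains. NEDD4L gave -0.014 with B. lactis 420 cells and -0.58 and -0.014 with E. coli supernatant. CA12 gave 0.0050 with Ls-33 cells, SLC20A1 gave 0.49, 0.36 and 0.31 with the supernatants of NCFM, B. lactis 420 and Ls-33, and SLC4A8 gave -0.040 for B. lactis 420 cells minus supernatant.

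Same-numbered arrays showed no sign of a shared shift. Their deviations from group means correlated at -0.104 to 0.057 over 21 pairs in the probiotic set. The E. coli set gave -0.138 to 0.036 over 3 pairs. Such correlations cannot show whether arrays were paired by culture or batch, and the main fits used no pairing. With the replicate block 2 carriers rose and 4 fell with Ls-33 cells (SLC26A11 was no longer called, adjusted p = 0.0524), 6 rose and 11 fell with E. coli supernatant, and the other counts against medium were the same.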
